A study of Homo sapiens with 4 samples.

Results

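The genes described here are 10 members of the actin system, chosen by name out of 57820 genes with a row in the count files: TMSB4X, TMSB10, ACTB, ACTG1, PFN1, PFN2, CFL1, TPM1, TPM2 and TPM4. They are beta-thymosins, cytoplasmic actins and actin-binding genes picked as abundant, although TPM2 ranked only 10686th of the tested genes by CPM. All 10 passed the filter on low counts and were among the 15136 genes tested. The data were stranded RNA-seq counts from untreated HAP1 cells, a human line of leukaemic origin that is nearly haploid. The dKO group (2 libraries, dKO 1 and dKO 2) carried knockouts of RING1A and RING1B, the paralogous enzymes of the Polycomb complex PRC1 that ubiquitinate histone H2A. The tKO group (2 libraries, tKO 1 and tKO 2) carried these knockouts and in addition one of BAP1, the deubiquitinase that removes this mark. BAP1 and RING1A were interrupted by an inserted STOP cassette, and the RING1B knockout cells were purchased. No library with intact RING1A and RING1B was analysed here, so the comparison of tKO with dKO asks only what loss of BAP1 changed in cells already without RING1A and RING1B. The mutant lines were selected clones, and whether tKO 1 and tKO 2 came from separate clones is not given in the sources used here.

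Actin is a small protein that exists as free monomers and as filaments, and cells set the balance between these forms with a few very abundant partners. Beta-thymosins bind monomers and hold them in reserve, profilins carry monomers to growing filament ends, cofilin severs and disassembles filaments, and tropomyosins lie along filaments and protect them. Many actin cytoskeleton genes are transcribed under SRF, a factor that binds CArG boxes, and whose cofactors MRTFA and MRTFB respond to the pool of free actin.

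Libraries held between 16054590 and 18455410 counts in genes, and reads of several loci made up between 14.3% and 14.8% of all reads of a library. The labels were checked on BAP1, which had 2046 and 2010 counts in dKO against 158 and 107 in tKO 1 and tKO 2 (log2 fold change -3.77, SE 0.19, limma adjusted p = 0.0065). RNF2, which encodes RING1B, still gave between 68.2 and 86.1 CPM in the 4 libraries, and RING1, which encodes RING1A, between 12 and 17 counts, so the RNA level of RNF2 does not show its knockout. The tKO libraries stood apart from each other. Expression in tKO 2 was reduced over a stretch of the short arm of chromosome 3 and in tKO 1 over one of chromosome 10, with median log2 ratios to dKO of -0.93 and -0.97. BAP1 lies in the chromosome 3 stretch, and of the 10 genes 0 lay in either stretch. Of the marker genes of other cell types, 5 of 6 haematopoietic ones had at most 3 counts in every library, with a summed level between 0.0542 and 0.445 CPM. PTPRC, which defines leukocytes, had 0 counts in 3 libraries and 1 in tKO 2. Among the epithelial markers EPCAM had 0 counts in every library, and KRT18 gave nearly all of the sum, with 18.6 to 22.8 CPM. The sum of 5 mesenchymal markers was 184 and 180 CPM in dKO against 155 and 132 CPM in tKO, without overlap between the groups. COL1A2 and PDGFRB had 0 counts in every library, and COL1A1 overlapped between the groups. The lower sum came from PDGFRA and THY1, each below dKO in both tKO libraries, as were 15.9% of all tested genes. The part of these markers in the results below was not tested. In bulk RNA, fewer cells of a type and less RNA per cell cannot be told apart.

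The sequences of the thymosin genes come first, because they decide which reads could be counted for TMSB4X. The coding sequence of TMSB4X is 135 bases long and that of TMSB10 is as long. They are shown with TMSB4XP8, a processed pseudogene of TMSB4X, read 5′ to 3′ from GENCODE release 44 transcripts on GRCh37, and capitals mark each base that differs from TMSB4X.
TMSB4X: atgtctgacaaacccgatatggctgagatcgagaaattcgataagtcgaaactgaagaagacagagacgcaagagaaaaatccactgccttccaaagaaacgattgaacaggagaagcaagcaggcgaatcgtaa
TMSB4XP8: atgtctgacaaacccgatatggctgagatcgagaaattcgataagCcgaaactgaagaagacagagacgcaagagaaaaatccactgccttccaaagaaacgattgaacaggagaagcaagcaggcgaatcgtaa
TMSB10: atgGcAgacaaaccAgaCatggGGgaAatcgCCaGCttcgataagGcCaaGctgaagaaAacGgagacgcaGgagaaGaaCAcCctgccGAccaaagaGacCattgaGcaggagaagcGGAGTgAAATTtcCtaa
The pseudogene differed from TMSB4X at 1 of 135 positions, T46C (the base of TMSB4X first, positions counted from the A of the start codon), which leaves a shared run of 89 bases. TMSB10 differed at 37 positions (72.6% identity), and its longest run shared with TMSB4X was 10 bases. Of the 523 windows of 100 bases in the canonical TMSB4X mRNA, 205 (39.2%) occurred again, letter for letter, outside the gene in GRCh37. Only uniquely mapped reads were counted, so a read from such a window was left out unless its mate or a neighbouring base placed it. The share was 7.63% for PFN1, 4.93% for TPM4 and 0.175% for ACTB, and no repeated window was found for the other 6 genes (0 windows each). Of the 10 genes TMSB4X had the largest share of sequence in which reads could go uncounted. It also had the largest share of reads on the opposite strand, between 0.908% and 3.52%, against at most 0.847% for the others.

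No difference between the genotypes was detected for the 10 genes: 0 passed an adjusted p of 0.05 in limma, against 0.0132% (2 genes) of all tested genes, and 0 of the 10 had an unadjusted p below 0.05. The smallest adjusted p among them was 0.996 and the smallest unadjusted p was 0.12. The 95% confidence intervals of all 10 fold changes lay inside a 2-fold difference in either direction, and those of 7 lay inside a 1.5-fold difference. The exceptions were TMSB4X, TPM1 and TPM2. These are intervals for each gene alone, on the log2-CPM scale. The median log2 fold change of the 10 genes was -0.03, against -0.0014 over all tested genes. In 3 of the 10 (TMSB10, TPM2 and TPM4) both tKO libraries lay below both dKO libraries, as did 15.9% of all genes, and in 0 of the 10 they lay above, as did 15.8% of all genes.

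**Figure D1:**
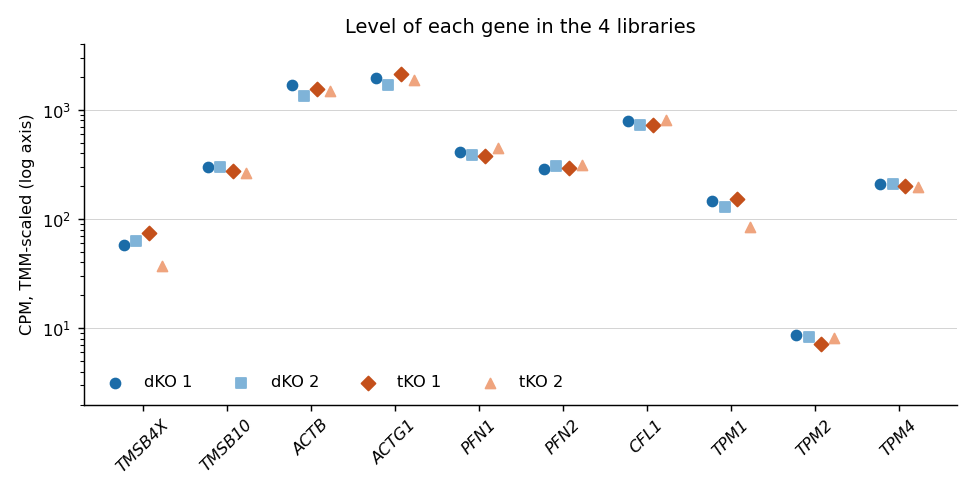
Level of each of the 10 genes (CPM after TMM scaling, log axis) in dKO 1, dKO 2, tKO 1 and tKO 2, with 1 point per library. The 4 points of a gene lie close together except for TMSB4X and TPM1, where tKO 2 lies below the other libraries at 37.3 and 85.3 CPM.

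TMSB4X (ENSG00000205542.6, GRCh37 chromosome X, 12993229 to 12995346, plus strand) encodes thymosin beta-4, the main monomer-sequestering peptide of many cells. It had 58.3 CPM in dKO 1, 63.2 CPM in dKO 2, 74.0 CPM in tKO 1 and 37.3 CPM in tKO 2. The dKO libraries were close to each other, while tKO 1 was the highest and tKO 2 the lowest of the 4, so that the tKO values enclosed the dKO values. The dKO mean was 60.8 ± 3.45 CPM (SD, n = 2) and the tKO mean 55.7 ± 25.9 CPM (SD, n = 2). The log2 fold change of -0.21 had an SE of 0.29 (limma adjusted p = 0.996). The interval of the fold ran from 0.534 to 1.40. The counts were 1201 in tKO 1 and 603 in tKO 2, with exact 95% Poisson intervals of 1134 to 1271 and 556 to 653 counts. These intervals cover counting error only and not the spread between cultures, and reads amplified by PCR are not independent molecules.

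The direction for TMSB4X depended on which tKO library was used. Against both dKO libraries, tKO 1 alone gave a log2 fold change of 0.28 (limma adjusted p = 0.332) and tKO 2 alone gave -0.70 (limma adjusted p = 5.08e-06). Of the 10 genes, 2 passed the adjusted p with tKO 2 alone, TMSB4X and TPM1, both lower by less than 1 on the log2 scale, and 0 passed with tKO 1 alone. In these fits the single tKO library is assumed to vary like the dKO pair. With tKO 2 alone 8.34% of all genes passed, 5.96% as lower, and with tKO 1 alone 2.91% passed, 2.07% as lower. The log2 ratio of tKO 2 to tKO 1 was -0.99, and 2.05% of the 11473 genes with a mean above 5 CPM had a lower one. The 10 nearest such genes on chromosome X had a median log2 ratio of tKO 2 to dKO of -0.03, the lowest being -0.29, so its neighbours were not reduced alike.

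The pseudogene TMSB4XP8 (chromosome 4, 91760054 to 91760188, minus strand) shared with TMSB4X its lowest count in tKO 2. The order of its dKO counts was the reverse of that of TMSB4X. The dKO libraries gave it 236 and 209 counts, tKO 1 gave 226 and tKO 2 gave 105, which was 22.1%, 18.2%, 18.8% and 17.4% of the TMSB4X count of the same library. The library tKO 2 was again the lowest, at 53.3% of the dKO mean in CPM against 61.4% for TMSB4X. Since these loci differ by 1 base over the coding sequence, the counts of TMSB4XP8 are uncertain and are not independent of those of TMSB4X. The names of 62 pseudogenes were made from those of the 10 genes. Of these, 34 had a count in any library and 4 had more than 20 in any library. Their sum reached at most 0.871% of the parent gene for each of the other genes.

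**Figure D2:**
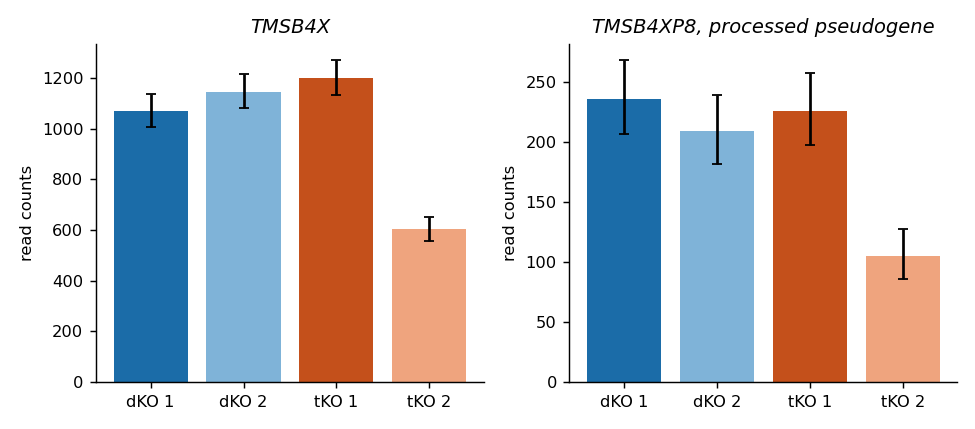
Read counts of TMSB4X (left) and of its processed pseudogene TMSB4XP8 (right) in the 4 libraries, as bars from 0 with exact 95% Poisson intervals. Both panels show tKO 2 as the lowest library, at 603 and 105 counts.

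TMSB10 (ENSG00000034510.4, chromosome 2, 85132780 to 85133795, plus strand), the paralog with the same monomer-binding role, was far more even. Its level was 302 and 298 CPM in the dKO libraries, 276 CPM in tKO 1 and 263 CPM in tKO 2. Both tKO libraries were lower, but the log2 fold change was -0.15 with an SE of 0.09, and it did not pass the threshold (limma adjusted p = 0.996). The interval reached from -0.36 to 0.05 on the log2 scale. The count ratio of TMSB10 to TMSB4X, which does not depend on library size, was 5.17 and 4.71 in dKO, 3.74 in tKO 1 and 7.05 in tKO 2. The tKO libraries thus held the lowest and the highest ratio. TMSB15A, a further thymosin, had 121 and 132 CPM in dKO and 118 and 117 CPM in tKO, and TMSB15B had between 5.39 and 6.22 CPM in the 4 libraries.

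The cytoplasmic actins ACTB (ENSG00000075624.9, chromosome 7, 5566040 to 5603533, minus strand) and ACTG1 (ENSG00000184009.5, chromosome 17, 79476439 to 79490873, minus strand) form the filaments themselves. Their coding sequences were 91.2% identical over 1128 bases. ACTB had 1683 CPM in dKO 1, 1329 CPM in dKO 2, 1557 CPM in tKO 1 and 1482 CPM in tKO 2. Here the dKO pair was the more variable, and both tKO values lay between the dKO values. Its log2 ratio of dKO 2 to dKO 1 was -0.34, and 2.79% of the genes above 5 CPM had a lower one. The log2 fold change of 0.02 was below its SE of 0.13.

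ACTG1 had 1949 and 1692 CPM in dKO against 2141 CPM in tKO 1 and 1863 CPM in tKO 2, so the groups overlapped. Its log2 fold change was 0.14 with an SE of 0.11 (limma adjusted p = 0.996). The count ratio of ACTG1 to ACTB was 1.16 and 1.27 in dKO, 1.37 in tKO 1 and 1.26 in tKO 2, again with overlap. Together these genes took between 0.304% and 0.366% of the gene counts of a library, and all 10 genes took between 0.518% and 0.580%.

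Of the muscle and smooth muscle actins, which HAP1 cells hardly used, ACTC1 had 0 counts in every library and ACTA1 at most 2. ACTA2 had between 2.90 and 6.56 CPM. ACTG2, the smooth muscle gamma actin, was counted 78 and 65 times in dKO, 138 times in tKO 1 and 4 times in tKO 2. As for TMSB4X, tKO 1 was above and tKO 2 below both dKO libraries, and the log2 fold change of -1.18 had an SE of 1.28 (limma adjusted p = 0.996). Fitted with tKO 1 alone, the log2 fold change was 1.10, and with tKO 2 alone it was -3.47 (limma adjusted p = 0.00886 and 1.94e-15).

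The profilins and cofilin 1 had fold changes near 0. PFN1 (ENSG00000108518.7, chromosome 17, 4848947 to 4852356, minus strand) had 411 and 384 CPM in dKO and 381 and 446 CPM in tKO. PFN2 (ENSG00000070087.9, chromosome 3, 149682691 to 149768575, minus strand), which lies on the long arm and outside the reduced stretch, had 286 and 304 CPM in dKO and 292 and 309 CPM in tKO. CFL1 (ENSG00000172757.8, chromosome 11, 65590493 to 65629497, minus strand) had 788 and 722 CPM in dKO and 723 and 806 CPM in tKO. In each of the 3 the groups overlapped. Their log2 fold changes were 0.05, 0.03 and 0.02 with SEs of 0.11, 0.09 and 0.10, and their intervals lay between -0.22 and 0.31. The coding sequences of PFN1 and PFN2 were 61.1% identical, and the count ratio of PFN2 to PFN1 lay between 0.694 and 0.792 in the 4 libraries. The cofilin paralogs CFL2 and DSTN, encoding the muscle type cofilin and destrin, had log2 fold changes of -0.03 and -0.09. Both tKO libraries were below both dKO libraries in each, at 152 and 148 CPM against 154 and 153 CPM for CFL2.

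Among the tropomyosins TPM1 (ENSG00000140416.15, chromosome 15, 63334819 to 63364114, plus strand) was the only one of 4 genes with tKO libraries over 0.5 apart on the log2 scale. It had 145 CPM in dKO 1, 128 CPM in dKO 2, 152 CPM in tKO 1 and 85.3 CPM in tKO 2. The library tKO 2 was the lowest and tKO 1 the highest, as for TMSB4X. The log2 fold change was -0.26 with an SE of 0.25 (limma adjusted p = 0.996). Fitted alone against dKO, tKO 1 gave 0.16 (limma adjusted p = 0.732) and tKO 2 gave -0.68 (limma adjusted p = 1.55e-07). Its 10 nearest genes had a median log2 ratio of tKO 2 to dKO of -0.07, the lowest being -0.41. The counts were 2470 in tKO 1 and 1378 in tKO 2, with exact Poisson intervals of 2374 to 2569 and 1306 to 1453.

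TPM2 (ENSG00000198467.9, chromosome 9, 35681989 to 35690053, minus strand) was the least abundant of the 10 genes, with 158 and 152 reads counted in dKO against 117 and 131 in tKO. Both tKO libraries were lower also in CPM, 7.21 and 8.11 against 8.62 and 8.38, yet the log2 fold change of -0.15 was below its SE of 0.20. TPM4 (ENSG00000167460.10, chromosome 19, 16177831 to 16213812, plus strand) had 210 and 209 CPM in dKO against 201 and 194 CPM in tKO. The groups did not overlap, yet its log2 fold change, -0.08, was below the SE of 0.09. TPM3, the remaining tropomyosin, had between 190 and 211 CPM. The count ratio of TPM4 to TPM1 was 1.44 and 1.63 in dKO, 1.32 in tKO 1 and 2.28 in tKO 2. The ratio was highest in tKO 2, where TPM1 was lowest, although TPM4 itself also had its lowest CPM there. TPM1 and TPM4 were 75.2% identical over the coding bases that could be aligned, and no repeated window of 100 bases was found in TPM1 or TPM2.

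**Figure D3:**
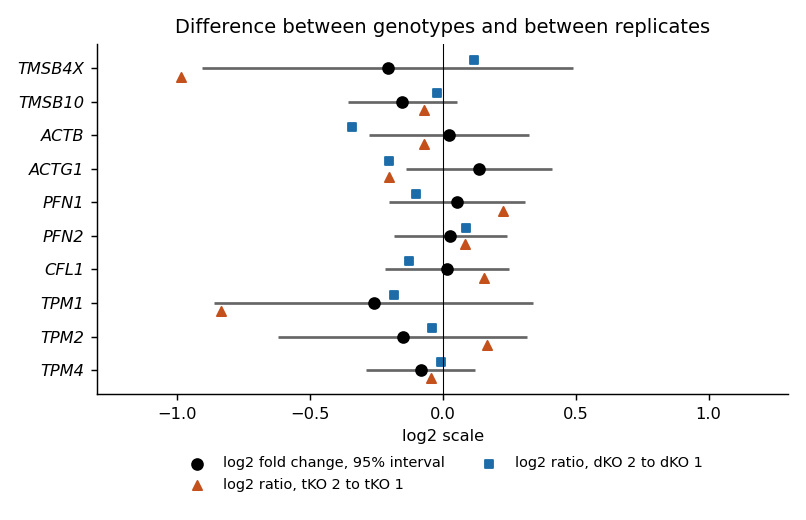
Log2 fold change of tKO against dKO (black points with 95% confidence intervals from limma) for each of the 10 genes, with the log2 ratio between replicates of tKO (orange triangles) and of dKO (blue squares). All 10 intervals include 0. The ratio of tKO 2 to tKO 1 is -0.99 for TMSB4X and -0.83 for TPM1, while the ratio of dKO 2 to dKO 1 lies furthest from 0 for ACTB, at -0.34.

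Levels of different genes can be compared only per length. As CPM per kb of merged exons, averaged over the libraries, the order was TMSB10 (618), ACTG1 (472), ACTB (343), PFN1 (254), CFL1 (130), PFN2 (82.5), TMSB4X (34.2), TPM4 (16.4), TPM1 (8.69) and TPM2 (2.54). The ranges over the 4 libraries of neighbours in this order did not overlap. Merged exons of long genes include rarely used exons. Over the length of the canonical mRNA, ACTG1 came first at 996 CPM per kb, with a range of 882 to 1116 that overlapped the 733 to 929 of ACTB. TMSB10 (618) and CFL1 (610) then overlapped, as did TPM1 (105), TMSB4X (93.6) and TPM4 (82.2). On both lengths TPM2 was the lowest. TMSB10 was the 21st most abundant of the tested genes by merged exons and the 70th by canonical length, while TMSB4X was the 1208th and the 728th. Neither length was corrected for repeated sequence, 39.2% of the windows of TMSB4X and 0 of those of TMSB10. The level and rank of TMSB4X may therefore be too low.

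The other genes of the actin system were taken from a list of 110 genes, which holds the 10. Of these, 109 were matched by symbol and 101 were tested. Of the 101, 0 passed an adjusted p of 0.05 in limma (smallest adjusted p = 0.911). With an unadjusted p below 0.05, 5 of 101 (4.95%) were lower in tKO against 2.15% of all tested genes, and 0 were higher against 1.4%. The median log2 fold change of the list was -0.051, but -0.029 without the genes of the stretches, -0.0078 without tKO 1 and -0.014 without tKO 2. In 16 of 101 both tKO libraries lay below both dKO libraries, near the 15.9% of all genes, and in 5 above, against 15.8% of all genes. By class, the 5 lower genes were 1 of 18 among cofilins and their regulators, 1 of 8 among tropomyosins and tropomodulins, 1 of 17 among Arp2/3 subunits and activators, 1 of 17 among bundling proteins and 1 of 6 among myosin II and tropomyosin partners. Among 4 thymosins, 4 actins, 11 capping and severing genes, 11 formins and other nucleators and 3 genes of the SRF pathway the number was 0.

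The 5 genes were TAGLN2, LMOD1, TWF2, ABI1 and CALD1. TAGLN2 encodes transgelin 2, a small actin-bundling protein of the calponin family. It had 156 and 161 CPM in dKO against 122 and 116 CPM in tKO. Its replicates were close in both genotypes and the groups did not overlap, with a log2 fold change of -0.41 and an SE of 0.09 (limma adjusted p = 0.911). The log2 fold change was -0.38 with tKO 1 alone and -0.45 with tKO 2 alone (limma adjusted p = 0.0329 and 0.00158). These fits share both dKO libraries, and their common direction follows from groups that do not overlap. CALD1 encodes caldesmon, which binds actin and tropomyosin, and had 212 and 211 CPM in dKO and 190 and 167 CPM in tKO (log2 fold change -0.25, SE 0.10, limma adjusted p = 0.996).

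LMOD1 encodes leiomodin 1, a filament nucleator of smooth muscle. Its counts were 12 and 24 in dKO and 5 and 1 in tKO, too few for a firm level. TWF2, a monomer-binding twinfilin, lies in the chromosome 3 stretch, and ABI1, a subunit of the WAVE complex that activates Arp2/3, lies in the chromosome 10 stretch. Of 6 list genes in the stretches, the others were SVIL, VILL, ARPC4 and BRK1. Of the list outside the stretches and above 5 CPM, 2 of 88 (2.27%) were lower at an unadjusted p below 0.05, against 1.60% of all such genes. The genes with the smallest p among those with a positive log2 fold change were PLS3 (0.15), LCP1 (0.56) and DIAPH1 (0.14), for which both tKO libraries lay above both dKO libraries, but none passed (limma adjusted p = 0.996). They encode a pair of filament-bundling plastins and a formin. LCP1 had 17 and 26 counts in dKO and 26 and 31 in tKO, too few for a firm level.

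**Figure D4:**
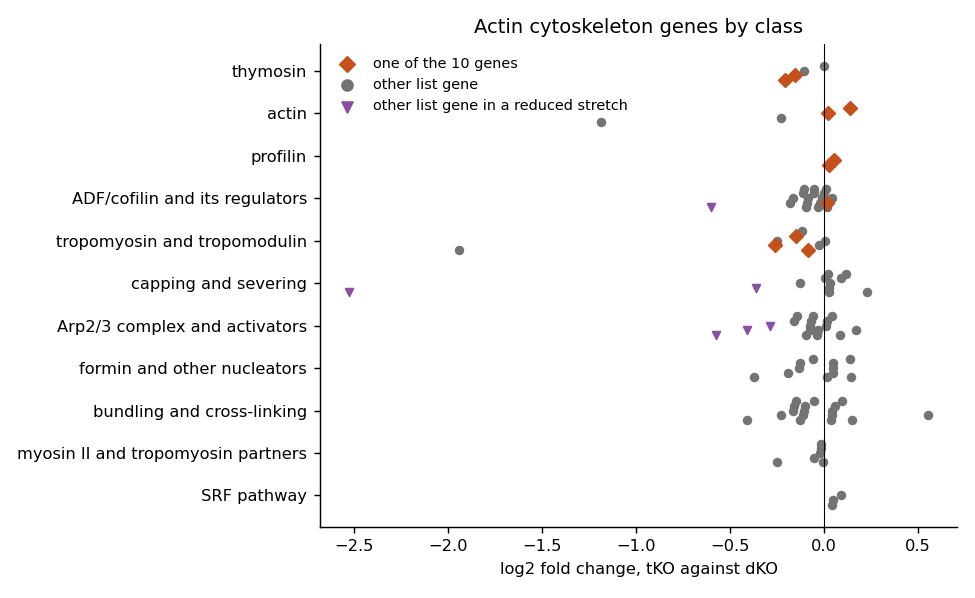
Log2 fold change of tKO against dKO for the 101 tested genes of the actin list, by class. Diamonds are the 10 genes, circles the other list genes, and purple triangles list genes in the reduced stretches of chromosomes 3 and 10. Most points lie near 0. VILL (-2.53), LMOD1 (-1.94) and ACTG2 (-1.18) are the lowest.

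The spread between the tKO libraries was then described over the same list, a choice made after the values of TMSB4X and TPM1 had been seen. Outside the stretches, 88 list genes had a mean above 5 CPM. In 7 of them (7.95%) tKO 2 was more than 0.5 below tKO 1 on the log2 scale, against 4.05% of all such genes. TMSB4X and TPM1, which prompted the count, are among the 7, and without the 10 genes it was 5 of 78 (6.41%). In 1 of the 88 (1.14%) tKO 2 was as far above, against 4.63% of all such genes. Between dKO 2 and dKO 1 a gap of this size in either direction was found in 1 of the 88 (1.14%), against 1.99% of all such genes. The 7 genes were DAAM1, TMSB4X, TPM1, TWF1, LIMK2, MYL6 and VCL. They encode a formin, thymosin beta-4, a tropomyosin, a twinfilin, a kinase of cofilin, a myosin light chain and vinculin. They were picked for tKO 2 lying below tKO 1, so their levels are a description. DAAM1 was at 121% of the dKO mean in tKO 1 and 49.3% in tKO 2, VCL at 108% and 74.0%, and MYL6 at 120% and 81.6%. Of the 10 genes, 6 had tKO 1 and tKO 2 on opposite sides of the dKO mean and 4 on the same side. The share of all tested genes that split this way was not computed, so the count describes no trait of these genes. Of the 6, ACTB lay near the dKO mean in tKO 1 and tKO 2, at 103% and 98.4%, as did PFN2, at 99.0% and 105%.

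**Figure D5:**
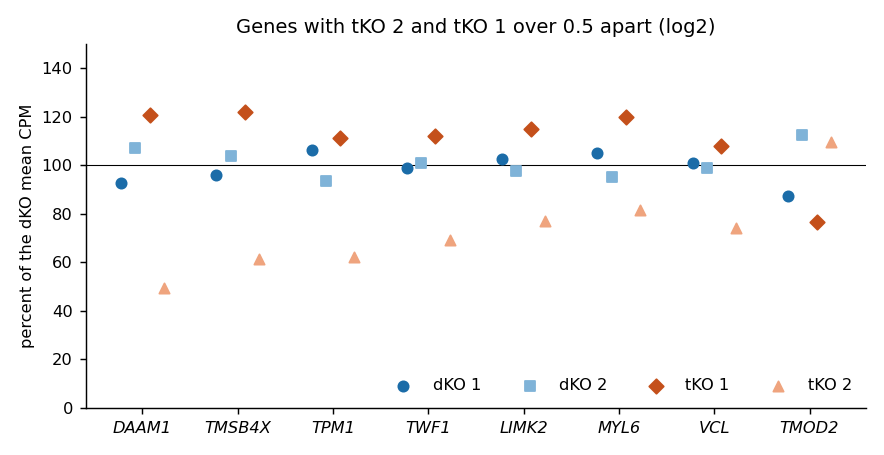
Level in each library as percent of the dKO mean for the 8 list genes outside the reduced stretches whose tKO libraries were over 0.5 apart on the log2 scale. TMSB4X is at 122% in tKO 1 and 61.4% in tKO 2, and TPM1 at 111% and 62.4%. TMOD2 alone is higher in tKO 2.

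The genes whose levels over the 4 libraries were most like those of TMSB4X were RPL32, ATRX, RPL14, ARIH2 and ANP32E, among 2258 genes above 100 CPM in every library. The root mean square difference of their centred log2-CPM from that of TMSB4X was between 0.07 and 0.11. RPL32, RPL14 and ARIH2 lie in the chromosome 3 stretch that was reduced in tKO 2, and ATRX lies on the X chromosome, as TMSB4X does, but on the long arm. With 4 libraries, likeness of this kind is set mainly by the low value in tKO 2.

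CArG boxes were searched on both strands in the RefSeq promoter sequences (GRCh38.p14, 250 bases before to 50 after the start), since SRF is a known regulator of actin genes. A match is a description and no proof of a site. A box was present in 1.29% of all 35116 promoters. Promoters were listed for 8 of the 10 genes, 11 promoters in all, and 2 genes had a box, ACTG1 and TPM4. No promoter was listed for ACTB or PFN2, so these were not searched. In the wider list 10 of 169 promoters (5.92%) had a box. ACTG2, which had 2 boxes, is shown as an actin described above, a choice made after its values were seen. The boxes are printed with 8 bases on each side and with the box in capitals.
ACTG1: aaagatcgCCATATATGGacatgttc
TPM4: tcctaggtCCAAATAAGGcgagggct
ACTG2: aaaaaccaCCTTATATGGtaatattg
ACTG2: tcagctggCCTTTTTAGGgactttgt
The boxes began 94 bases before the start of ACTG1 (promoter chr17:81512750-81513049, minus strand), 173 before that of TPM4 (chr19:16067288-16067587, plus strand), and 110 and 73 before that of ACTG2 (chr2:73892758-73893057, plus strand). With tKO 2 alone the log2 fold changes were 0.04 for ACTG1, -0.11 for TPM4 and -3.47 for ACTG2. With tKO 1 alone they were 0.24 for ACTG1, -0.06 for TPM4 and 1.10 for ACTG2. Other tested list genes with a box were CNN2, FLNA, ACTN1, SRF and SVIL. In tKO 2 they were at 81.9%, 84.8%, 89.7%, 100% and 106% of the dKO mean. In tKO 1 they were at 104%, 98.0%, 96.4%, 113% and 57.2%, and SVIL lies in the chromosome 10 stretch reduced in that library. TMSB4X and TPM1 had no box in the window searched. Whether the boxes bear on these levels was not tested. SRF itself had 75.0 and 69.1 CPM in dKO and 81.6 and 72.2 CPM in tKO, and MRTFA and MRTFB had log2 fold changes of 0.05 and 0.04.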

How the data were processed

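RNA-seq counts of 4 HAP1 libraries were analysed, 2 dKO and 2 tKO, grouped by title. The authors trimmed reads with cutadapt (1.12) through Trim Galore (0.4.4), removed ribosomal reads with bowtie (1.2) and mapped the rest to GRCh37 with STAR (2.5.2b). The deposited values were raw counts per GENCODE release 19 gene from uniquely mapped reads, and the column for the reverse strand, which fits the stranded kit, was used. Lines that name no gene held between 27.3% and 28.7% of the reads and were left out.

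Genes above 0.5 CPM in at least 2 libraries were kept. Log2-CPM values (prior count 2, TMM, edgeR 4.0.16) were fitted with limma (3.58.1, R 4.3.3), with genotype as the only term, a mean-variance trend and Benjamini-Hochberg adjustment over all tested genes. Genes were called at an adjusted p below 0.05, without a minimum fold change. The study's threshold for DE genes also asks for an absolute log2 fold change above 1, and was used only for the number of all DE genes. The filter, TMM and the model follow the study, which describes its replicates as independent biological ones. CPM values are TMM-scaled, except in the filter, for the cell type markers and for the 3 counts below, which use library totals. All tests are two-sided. At this depth 3 counts correspond to 0.163 to 0.187 CPM.

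Symbols, positions and lengths came from GENCODE release 44 on GRCh37, and 97.5% of tested genes had a symbol. Named were the 10 genes, their paralogs, list genes past the threshold or with the 3 smallest p-values in each direction, BAP1, and the 5 genes most like TMSB4X. Other genes were named after their values were seen. The genes and lists were chosen with earlier results of these data known. The fit was tested on simulated data over 15136 genes for this comparison, with changes placed in 200 genes above 5 CPM. It called 81.6% of 2-fold and 98.8% of 4-fold changes at the spread estimated from these libraries. These shares hold for that number of changed genes and are not the power for any single one of the 10 genes. Alternatives were DESeq2 (1.42.0), edgeR's quasi-likelihood test, limma-voom, limma without a trend, RLE factors, library totals, other filters, unstranded counts, a prior count of 0.25, a replicate block and leaving out each replicate.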

Additional observations from a re-analysis of the deposited data

How the results depend on the processing

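Among the 10 genes, 0 passed the adjusted p-value under every alternative with all 4 libraries, and between 0 and 2 when 1 library was left out, TMSB4X and TPM1 passing without tKO 1. For the wider actin list the number was 0 with all 4 libraries and between 0 and 14 with 1 left out: 14 without tKO 1, all lower and 4 of them in the stretches, and 5 without tKO 2, of which 2 were in the stretches. These fits share both dKO libraries. The log2 fold change of TAGLN2 was -0.45 without tKO 1 and -0.38 without tKO 2. That of ACTG2 was in opposite directions, -3.47 without tKO 1 and 1.10 without tKO 2. At an unadjusted p below 0.05 the number of the 10 genes was 0 with the edgeR quasi-likelihood test and 0 with DESeq2.

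The number of all DE genes, which need an absolute log2 fold change above 1 as well, was 2 in limma, 1 with the edgeR quasi-likelihood test, without the trend, above 5 CPM and with unstranded counts, 0 with no filter, 25 with DESeq2 and 13 with the replicate block, and it ran from 0 to 480 with 1 library left out (0 without either dKO library, 480 without tKO 1, 175 without tKO 2). With the replicate number as a block no call among the 10 genes or the list changed. Deviations of same-numbered libraries had a correlation of 0.0581, so the numbers were not taken as pairs.

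With 1 library left out, log2 fold changes ran from -0.70 to 0.28 for TMSB4X, -0.68 to 0.16 for TPM1, -0.15 to 0.19 for ACTB, -0.061 to 0.17 for PFN1, -0.018 to 0.071 for PFN2 and -0.062 to 0.094 for CFL1, so each changed sign. TMSB10, ACTG1, TPM2 and TPM4 kept theirs in all 15 alternatives. The median of the 10 genes was -0.034, -0.043 with unstranded counts, and -0.117 to -0.037 with 1 library left out. That of the list was -0.051, -0.035 with edgeR and with DESeq2, -0.059 with no filter, -0.029 without the stretches, and -0.060 to -0.0078 with 1 library left out. With unstranded counts the ratio of PFN2 to PFN1 rose from 0.744 to 0.836 in dKO and from 0.730 to 0.820 in tKO. That of TPM4 to TPM1 rose from 1.54 to 1.88 in dKO and from 1.80 to 2.23 in tKO. TPM2 to TPM1 rose from 0.0624 to 0.0761 and from 0.0712 to 0.0882. Fewer PFN1 and TPM1 reads were assigned there, for TPM1 2182 against 2664 in dKO 1. TMSB10 to TMSB4X fell from 4.94 to 4.83 and from 5.39 to 5.19, and ACTG1 to ACTB stayed at 1.22 and 1.32. The cause of the other changes was not tested. Canonical mRNA lengths were an addition chosen after seeing the data.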
